A study of Mus musculus with 7 samples.

Results

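The transitional alveolar epithelial genes described here are Krt7, Krt8, Krt18, Krt19, Cldn4, Sfn, Areg, Hbegf and Sprr1a, a list of 9 genes taken by symbol from the 55401 genes of the count table. They were chosen as known genes of this cell state, but with earlier results of these data known. All 9 passed the filter on low counts, which left 17465 genes for testing. The libraries came from right lung lobes of male C57BL/6 mice, 6 to 8 weeks of age and 20 to 25 g in weight, all of which had received bleomycin, an antibiotic that injures the lung and leaves fibrosis. On day 7 the mice were randomised to bleomycin alone (BLM, 4 mice) or to bleomycin followed by hyperbaric oxygen (BLM+HBO, 3 mice), which is oxygen breathed under pressure, here 2.5 ATA for 90 min per day over 14 days. Lungs were taken on day 21, and 1 library was made per mouse. The series design states that BLM mice sat in the chamber without pressurised oxygen, whereas the study's supplementary methods call them untreated, so what the controls share with the HBO mice beyond bleomycin is not settled. The authors left out mice that did not lose weight as required after bleomycin. No uninjured lung was analysed here, so the values show how the groups differ from each other and not how far either lies from a healthy lung.

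When the gas-exchange surface is injured, alveolar type 2 (AT2) cells, which secrete surfactant, can leave their resting state and become the thin alveolar type 1 (AT1) cells that carry gas exchange. On the way they pass through a transitional state, known from bleomycin-injured mice and from human pulmonary fibrosis, in which the cells flatten and make large amounts of Krt8 and other keratins of simple epithelia. This state is also known for a change of tight-junction claudins, stress and cell cycle arrest genes, integrins, and growth factors that act on the EGF receptor. The question put to the data was whether these genes differed between bleomycin-injured lungs with and without HBO.

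Total counts ranged from 18157161 to 26365969 reads per mouse. On the first principal component of log2 read counts scaled by library (CPM), which held 37.3% of the variance, BLM mice lay between -47.6 and -6.08 and the BLM+HBO mice lay at 54.8, -0.996 and 37.8. BLM+HBO 2 was therefore the treated mouse nearest to BLM, and it differed less from BLM 4 (chi-square per gene 13) than any 2 mice of the same group differed from each other (22.1 at the lowest). Heart muscle genes differed between the groups. Their summed level was 73.5 to 201 CPM in BLM and 754, 594 and 174 CPM in BLM+HBO 1, 2 and 3. The sum of BLM+HBO 3 lay inside the BLM range. Of 12 such genes, 12 had a higher mean in BLM+HBO, with a median log2 fold change of 1.77. The study's rule (fold change above 1.5, edgeR unadjusted P below 0.05) called 11 as higher, beside 3.4% of all genes tested. For 4 of the 12 the groups did not overlap, beside 8.77% of all genes tested. Results for the 9 genes are given with and without BLM+HBO 2 where its removal changed them.

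The mean of each of the 9 genes was lower in BLM+HBO than in BLM. Across all genes tested, 8523 of 17465 (48.8%) had a lower mean. The median log2 fold change of the 9 genes was -0.33, beside 0.0071 over all genes tested, and it lay between -0.41 and -0.22 with each mouse left out, nearest to 0 without BLM 3. By the study's rule, which asks for a fold change above 1.5 and an unadjusted P below 0.05, Cldn4 and Sfn were called, both lower in BLM+HBO, so 2 of 9 genes passed where the rule called 6.29% of all genes tested (2.89% as lower and 3.4% as higher). The P values came from edgeR's quasi-likelihood test. No gene in the table reached an adjusted P below 0.05 in edgeR, the lowest adjusted P being 0.423, while 1861 genes (10.7%) had an unadjusted P below 0.05. The groups did not overlap for 1 of the 9 genes, Krt7, beside 8.77% of all genes tested (4.72% with BLM+HBO lower and 4.05% with it higher). These are whole-lobe libraries, in which fewer transitional cells and less RNA per cell cannot be told apart.

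**Figure D1:**
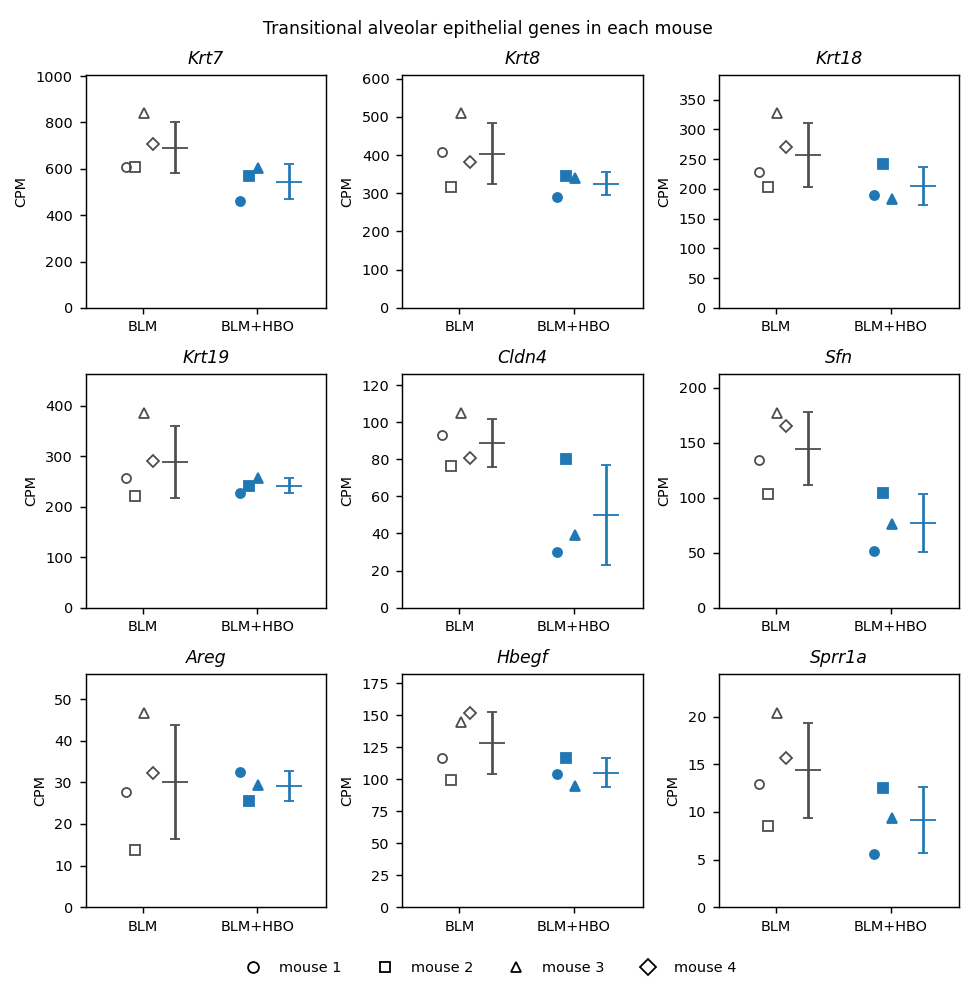
CPM of each of the 9 genes (vertical axes from 0) in each mouse of BLM (open grey) and BLM+HBO (filled blue), with the symbol giving the mouse number and the bars giving mean ± SD (n = 4 and n = 3). BLM 3 was the highest mouse for 8 genes, and for Cldn4 the BLM+HBO mice split into BLM+HBO 2 at 80.4 CPM and the other two at 29.8 and 39.3 CPM.

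Levels of different genes were compared per length, as CPM per kilobase of exon (FPKM). Per length, Krt8 was the highest of the 9 genes at 206 ± 41.0 FPKM in BLM (SD, n = 4) and 166 ± 15.6 FPKM in BLM+HBO (SD, n = 3), followed by Krt18, Krt19, Krt7, Sfn and Cldn4 in both groups. Krt8 was above Krt18 in 7 of 7 mice and Krt18 above Krt19 in 6 of 7, although the ranges of these neighbours overlapped over the mice of a group. Krt7 exceeded Sfn in 6 of 7 mice. Sfn stood above Cldn4 in 7 of 7 mice, and over the BLM mice the ranges of Sfn (63.6 to 110 FPKM) and Cldn4 (42.0 to 57.7 FPKM) were apart. Hbegf and Areg could not be ordered, since Hbegf was above Areg in 4 of 7 mice, and Sprr1a was the lowest in every mouse, with 6.87 to 25.3 FPKM. This order depends on the exon lengths. By CPM, Krt7 was above Krt8, with means of 690 against 404 CPM in BLM and 544 against 325 CPM in BLM+HBO. The deposited exon length was 7049 bases for Krt7 and 1958 bases for Krt8.

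**Figure D2:**
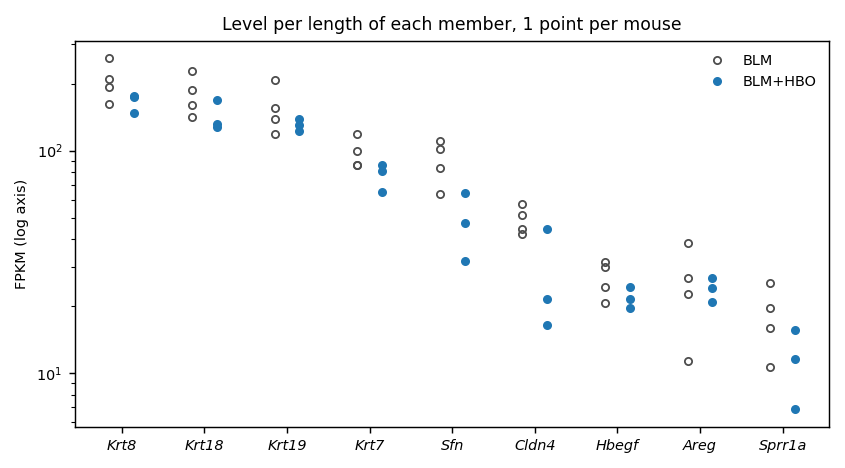
FPKM on a log axis for the 9 genes in the order of their BLM means, with 1 point per mouse (open grey, BLM; filled blue, BLM+HBO). The 4 keratins lay between 65.2 and 260 FPKM, and Sprr1a between 6.87 and 25.3 FPKM.

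Krt8 and Krt18 encode the type II and type I keratins that pair into the filaments of simple epithelial cells. Krt8 (ENSMUSG00000049382.10, chromosome 15, 101996698 to 102004482 on the minus strand, GRCm38) and Krt18 (ENSMUSG00000023043.7, chromosome 15, 102028180 to 102032027 on the plus strand) lie 23697 bases apart. Krt8 measured 409, 316, 509 and 381 CPM in BLM 1 to 4 and 290, 344 and 341 CPM in BLM+HBO 1 to 3. The groups overlapped, because BLM 2 lay below BLM+HBO 2 and BLM+HBO 3, while the other three BLM mice lay above every treated mouse. The mean was 404 ± 80.2 CPM in BLM (SD, n = 4) and 325 ± 30.6 CPM in BLM+HBO (SD, n = 3), a fold of 0.805. The log2 fold change was -0.31 ± 0.16 (SE), with a 95% interval from -0.68 to 0.05, and it did not pass the test (edgeR unadjusted P = 0.0865, adjusted P = 0.526). With each mouse left out it ranged from -0.41 without BLM 2 (edgeR unadjusted P = 0.0273) to -0.18 without BLM 3 (edgeR unadjusted P = 0.233).

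Krt18 measured 229, 203, 327 and 270 CPM in BLM and 189, 242 and 183 CPM in BLM+HBO, with BLM+HBO 2 above BLM 1 and BLM 2. The log2 fold change was -0.33 ± 0.18 (SE; edgeR unadjusted P = 0.0924, adjusted P = 0.534). Without BLM+HBO 2 it was -0.47 with an unadjusted P of 0.0339 in edgeR, at a fold under 1.5. Without BLM 3 it was -0.19 (edgeR unadjusted P = 0.25). The ratio of Krt8 to Krt18 counts was 1.78, 1.56, 1.56 and 1.41 in BLM and 1.53, 1.42 and 1.86 in BLM+HBO. The mean log2 ratios, 0.65 ± 0.14 and 0.67 ± 0.20 (SD), differed by 0.02, which was smaller than the spread between mice (two-sided exact permutation P = 0.829, 4 ratios tested, Benjamini-Hochberg adjusted P = 0.829). With 4 against 3 mice the smallest P that this test can give is 0.0286.

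Krt7, a type II keratin of ductal and glandular epithelia that is raised in transitional cells, was the gene whose groups did not overlap. Krt7 (ENSMUSG00000023039.17, chromosome 15, 101411043 to 101430313, plus strand) measured 606, 608, 839 and 707 CPM in BLM and 459, 569 and 604 CPM in BLM+HBO. The gap between the groups was narrow, since BLM+HBO 3 at 604 CPM was just under BLM 1 at 606 CPM. The means were 690 ± 110 and 544 ± 75.7 CPM (SD, n = 4 and 3), with a log2 fold change of -0.34 ± 0.16 (SE) and a 95% interval from -0.70 to 0.02 (edgeR unadjusted P = 0.0592, adjusted P = 0.488). DESeq2 gave the same log2 fold change with an unadjusted P of 0.0362. In edgeR it was -0.23 without BLM 3 (unadjusted P = 0.156) and -0.43 without BLM+HBO 3 (unadjusted P = 0.051). Krt19 (ENSMUSG00000020911.14, chromosome 11, 100140810 to 100148665, minus strand), the small type I keratin that lacks a tail, measured 257, 220, 385 and 290 CPM in BLM and 227, 241 and 256 CPM in BLM+HBO. Its treated mice all fell inside the BLM range, and the log2 fold change was -0.26 ± 0.18 (SE; edgeR unadjusted P = 0.183). Without BLM 3 the log2 fold change of Krt19 was -0.08 (edgeR unadjusted P = 0.547). Few reads were assigned to the loci examined here: 59 reads over all mice for the pseudogene Krt8-ps and 66 for the antisense gene Gm36026, beside 51274 for Krt8, and 217 for the antisense gene Gm671, beside 87141 for Krt7. Reads that fit several loci or genes are dropped by the counting, so these values do not show how many were shared. No other pseudogene was examined. Counting did not use strand.

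Upstream sequence is shown for Cldn4 and Sfn, the genes that the rule called, and for Sprr1a and Areg, whose windows hold matches to stress- and growth-factor-response motifs. Windows were the 250 bases before the RefSeq start in GRCm38.p6, and 7 of the 9 genes had one that was used. Each is written 5′ to 3′ on the strand of the gene, with capitals marking matches to AP-1 (TGANTCA) or to the cyclic AMP response element, CRE (TGACGTCA). The windows are Cldn4 at chr5:134946935-134947184 (minus strand), Sfn at chr4:133602169-133602418 (minus strand), Sprr1a at chr3:92485882-92486131 (minus strand) and Areg at chr5:91139349-91139598 (plus strand).
Cldn4: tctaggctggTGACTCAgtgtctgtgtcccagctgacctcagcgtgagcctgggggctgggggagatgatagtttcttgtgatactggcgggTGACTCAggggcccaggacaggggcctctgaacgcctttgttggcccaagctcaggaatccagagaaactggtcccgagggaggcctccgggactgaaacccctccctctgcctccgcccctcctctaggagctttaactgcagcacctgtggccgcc
Sfn: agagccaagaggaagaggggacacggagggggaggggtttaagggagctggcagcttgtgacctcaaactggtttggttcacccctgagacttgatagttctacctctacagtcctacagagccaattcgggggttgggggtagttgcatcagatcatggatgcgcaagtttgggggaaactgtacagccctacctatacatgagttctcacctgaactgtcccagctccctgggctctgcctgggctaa
Sprr1a: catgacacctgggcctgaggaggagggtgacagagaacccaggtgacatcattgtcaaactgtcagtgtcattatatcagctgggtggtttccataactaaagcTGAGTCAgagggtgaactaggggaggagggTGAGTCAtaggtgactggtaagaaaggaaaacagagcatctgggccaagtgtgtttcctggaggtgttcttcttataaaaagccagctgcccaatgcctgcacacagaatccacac
Areg: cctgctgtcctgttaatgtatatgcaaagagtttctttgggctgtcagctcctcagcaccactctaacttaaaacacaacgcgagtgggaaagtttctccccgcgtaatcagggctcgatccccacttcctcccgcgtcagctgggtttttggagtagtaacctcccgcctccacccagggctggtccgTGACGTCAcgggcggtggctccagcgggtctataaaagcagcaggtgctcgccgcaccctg

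AP-1 is the dimer of Fos and Jun proteins that many injury and growth signals switch on. Its motif was matched in 2 of the 7 windows, at 240 to 234 and 158 to 152 bases before the start of Cldn4 and at 146 to 140 and 116 to 110 bases before the start of Sprr1a, beside 6.75% of 32851 windows of the same length. The Areg window held a CRE at 61 to 54 bases before the start, a motif found in 1.55% of windows. A TATA box (TATAAA) lay at 43 to 38 bases in Sprr1a and at 31 to 26 bases in Areg (12.4% of windows). A GC box (GGGCGG) was found for Areg, Cldn4 and Krt7, which held 4 (32.7% of windows). The hypoxia response core (ACGTG) and the TEAD motif (GGAATG) were matched in 0 of the 7 windows, beside 16.6% and 12.6% of all windows. Sfn, Krt8 and Krt18 held none of the 6 motifs. Both strands were searched, and a match describes these letters and is not evidence that a factor binds.

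Sfn, which encodes 14-3-3 sigma, an epithelial protein that holds cells before mitosis after DNA damage, was called as lower in BLM+HBO. Sfn (ENSMUSG00000047281.3, chromosome 4, 133600556 to 133602168) measured 134, 103, 177 and 165 CPM in BLM and 51.4, 104 and 76.1 CPM in BLM+HBO. BLM+HBO 1 and BLM+HBO 3 lay below every BLM mouse, and BLM+HBO 2 exceeded BLM 2 by a narrow margin. The means were 145 ± 33.4 CPM in BLM and 77.2 ± 26.5 CPM in BLM+HBO (SD, n = 4 and 3), a fold of 0.534. The log2 fold change was -0.91 ± 0.25 (SE), with a 95% interval from -1.47 to -0.34 (edgeR unadjusted P = 0.00513, adjusted P = 0.423). It ranged from -1.18 without BLM+HBO 2 to -0.68 without BLM+HBO 1, and Sfn was called in 15 of 15 alternatives.

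Cldn4 encodes claudin-4, a tight-junction protein that restricts the passage of ions between epithelial cells. Cldn4 (ENSMUSG00000047501.3, chromosome 5, 134945119 to 134946934) measured 93.0, 76.3, 105 and 80.9 CPM in BLM and 29.8, 80.4 and 39.3 CPM in BLM+HBO. BLM+HBO 1 and BLM+HBO 3 lay far below every BLM mouse, whereas BLM+HBO 2 lay inside the BLM range. The means were 88.8 ± 12.8 and 49.8 ± 26.9 CPM (SD, n = 4 and 3), a fold of 0.561, and the log2 fold change was -0.83 ± 0.30 (SE), with a 95% interval from -1.49 to -0.17 (edgeR unadjusted P = 0.0188, adjusted P = 0.423). The call rested on the treated mice: without BLM+HBO 1 the log2 fold change was -0.57 (edgeR unadjusted P = 0.0579), without BLM+HBO 3 it was -0.69 (edgeR unadjusted P = 0.0737), and without BLM+HBO 2 it was -1.36 with an adjusted P of 0.0264 in edgeR.

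**Figure D3:**
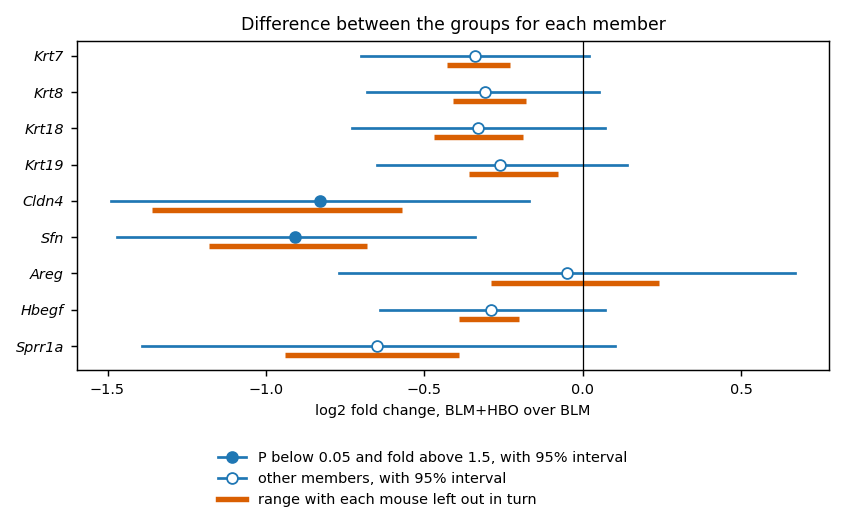
Log2 fold change of BLM+HBO over BLM (horizontal axis) for each gene from edgeR, with its 95% interval in blue and, in orange, the range when each of the 7 mice was left out in turn; filled points are Cldn4 and Sfn, called by the unadjusted rule. The intervals of the other 7 genes include 0, and the orange range crosses 0 for Areg.

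Claudin-4 was also set against claudin-18, the main claudin of resting alveolar epithelium. Cldn18 measured 780 ± 142 CPM in BLM and 902 ± 44.3 CPM in BLM+HBO (SD; log2 fold change 0.21, edgeR unadjusted P = 0.225). The count of Cldn4 per count of Cldn18 was 0.162, 0.0966, 0.120 and 0.0921 in BLM and 0.0323, 0.0944 and 0.0421 in BLM+HBO. BLM+HBO 2 again fell among the BLM mice, between BLM 4 and BLM 2, and the other two treated mice were lower than every BLM mouse. The mean log2 ratio was -3.13 ± 0.37 in BLM and -4.31 ± 0.81 in BLM+HBO (SD), a difference of -1.18 that did not pass (two-sided exact permutation P = 0.0571, Benjamini-Hochberg adjusted P = 0.228 over 4 ratios).

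Keratin was set beside a general epithelial transcript as the ratio of Krt8 to Cdh1, which encodes E-cadherin of the adherens junction. Krt8 is also made by airway and mesothelial cells, whose genes are given below, so the ratio does not measure keratin of alveolar cells alone. The part of those cells in it was not tested. Cdh1 measured 330, 342, 443 and 440 CPM in BLM and 425, 381 and 467 CPM in BLM+HBO (log2 fold change 0.13 ± 0.15 SE, edgeR unadjusted P = 0.411). Krt8 per Cdh1 was 1.24, 0.925, 1.15 and 0.866 in BLM and 0.682, 0.902 and 0.731 in BLM+HBO. BLM+HBO 1 and BLM+HBO 3 were below all BLM mice, and BLM+HBO 2 lay between BLM 4 and BLM 2. The mean log2 ratio was 0.05 ± 0.25 in BLM and -0.38 ± 0.21 in BLM+HBO (SD), a difference of -0.43 (two-sided exact permutation P = 0.114, Benjamini-Hochberg adjusted P = 0.228). Epcam, another gene of all epithelia, measured 78.2 ± 14.8 and 80.1 ± 9.31 CPM (SD, n = 4 and 3).

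**Figure D4:**
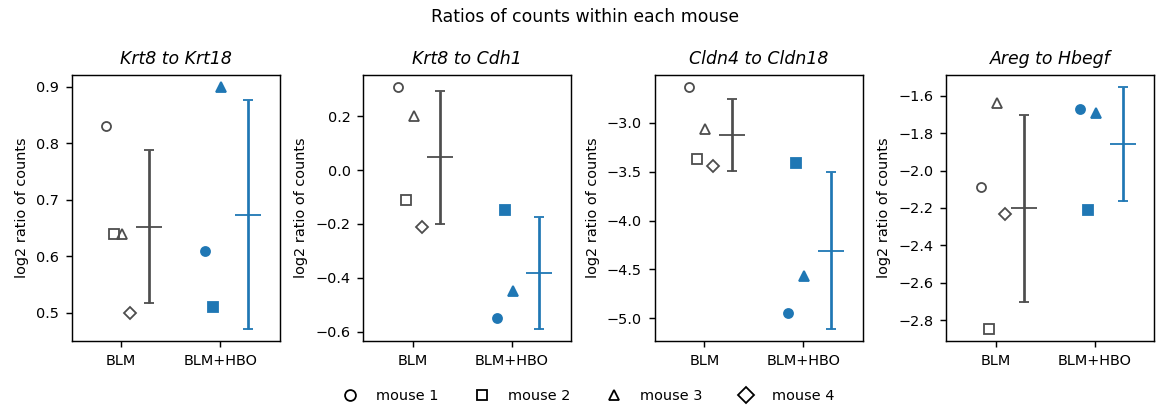
Log2 ratios of counts within each mouse (vertical axes, a separate range in each panel and not starting at 0) for Krt8 to Krt18, Krt8 to Cdh1, Cldn4 to Cldn18 and Areg to Hbegf, with mean ± SD bars beside the mice. BLM+HBO 2 lay inside the BLM range for Krt8 to Cdh1 and Cldn4 to Cldn18, in which the other two treated mice lay below it.

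Areg and Hbegf encode amphiregulin and heparin-binding EGF-like growth factor, membrane-anchored ligands that act on the EGF receptor once they are shed. Areg (ENSMUSG00000029378.5, chromosome 5, 91139599 to 91148432) measured 27.6, 13.7, 46.7 and 32.3 CPM in BLM and 32.5, 25.4 and 29.3 CPM in BLM+HBO. All 3 treated mice lay inside the wide BLM range, and the means were 30.1 ± 13.6 and 29.1 ± 3.56 CPM (SD). The log2 fold change was -0.05 ± 0.32 (SE), with an interval from -0.77 to 0.67 that leaves changes of over 1.5-fold in either direction undetermined (edgeR unadjusted P = 0.879). Its sign depended on single mice, from -0.29 without BLM 2 to 0.24 without BLM 3. Hbegf (ENSMUSG00000024486.6, chromosome 18, 36504927 to 36515805, minus strand) measured 117, 99.4, 145 and 152 CPM in BLM and 104, 117 and 94.7 CPM in BLM+HBO, with a log2 fold change of -0.29 ± 0.16 (SE; edgeR unadjusted P = 0.1). For Hbegf, BLM 2 lay among the treated mice, BLM 1 was level with the highest of them, BLM+HBO 2, and BLM 3 and BLM 4 lay above all of them.

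The ratio of Areg to Hbegf counts was 0.235, 0.138, 0.322 and 0.213 in BLM and 0.313, 0.217 and 0.310 in BLM+HBO. The BLM+HBO mice lay inside the BLM range, and the mean log2 ratios of -2.20 ± 0.50 and -1.86 ± 0.30 (SD) differed by 0.34, less than the spread between BLM mice (two-sided exact permutation P = 0.4, Benjamini-Hochberg adjusted P = 0.533).

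Among the other ligands, the receptors and the shedding enzymes of this pathway, 15 of 17 listed genes could be tested, of which 9 had a lower and 6 a higher mean in BLM+HBO, with a median log2 fold change of -0.11. Without BLM+HBO 1 the median was 0.02, with 7 lower and 8 higher. The rule called 1, Ereg, which encodes epiregulin, a further EGF receptor ligand. Ereg measured 34.1, 7.66, 16.8 and 19.0 CPM in BLM and 1.92, 10.6 and 3.79 CPM in BLM+HBO, giving a log2 fold change of -1.83 ± 0.60 (SE; edgeR unadjusted P = 0.0128, adjusted P = 0.423). BLM+HBO 1 and BLM+HBO 3 were below all BLM mice, and BLM+HBO 2 was above BLM 2. Ereg was called with each mouse left out in turn. Of the genes that were not called, Nrg1, which encodes the ERBB3 and ERBB4 ligand neuregulin-1, had a log2 fold change of -0.47 (edgeR unadjusted P = 0.0464, and called without BLM+HBO 2 at -0.70), and Btc, which encodes betacellulin, one of 0.65 (edgeR unadjusted P = 0.0516). Adam10, which encodes a protease that sheds ERBB ligands, had a log2 fold change of -0.26 (edgeR unadjusted P = 0.0635). The receptor gene Egfr, chosen for mention after its values were seen, measured 32.1 ± 10.1 CPM in BLM and 24.1 ± 5.33 CPM in BLM+HBO (SD; edgeR unadjusted P = 0.119).

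Sprr1a encodes a small proline-rich protein that is cross-linked into the cornified envelope of keratinocytes and appears in injured alveolar cells. Sprr1a (ENSMUSG00000050359.7, chromosome 3, 92483952 to 92485895) was the lowest of the 9 genes, with 104 to 372 reads per mouse. It measured 12.9, 8.51, 20.4 and 15.7 CPM in BLM and 5.54, 12.5 and 9.37 CPM in BLM+HBO, so that BLM 2 lay among the treated mice. The means were 14.4 ± 5.0 and 9.15 ± 3.51 CPM (SD, n = 4 and 3), and the log2 fold change was -0.65 ± 0.33 (SE), with a 95% interval from -1.39 to 0.10 (edgeR unadjusted P = 0.0803, adjusted P = 0.516). It passed the unadjusted rule without BLM+HBO 2, at a log2 fold change of -0.94, and without BLM 2, at -0.83. The difference was smaller without BLM+HBO 1, at -0.39 (edgeR unadjusted P = 0.25), and without BLM 3, at -0.43 (edgeR unadjusted P = 0.224).

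The order of the mice was shared by most of the 9 genes. BLM 3 was the highest mouse for 8 genes and BLM 4 for Hbegf. BLM+HBO 1 was the lowest for 5 genes, and BLM 2 and BLM+HBO 3 for 2 each. BLM 2 was also among the lowest 2 mice for 5 genes, so the low end of the BLM group came mostly from this mouse. The genes whose standardised log2 CPM over the 7 mice lay closest to that of Krt8 were 2310007B03Rik, Smg9, Slc35e4, Sec23b and Tomm5, at root mean square differences of 0.0969, 0.190, 0.224, 0.239 and 0.298 SD. Of the other 8 transitional genes, Krt19 was the nearest to Krt8 (rank 21 of all genes tested), followed by Sprr1a (28), Krt7 (62), Krt18 (94) and Sfn (137), and Areg was the farthest (1651). These ranks describe 7 mice and carry no test.

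A further list of 20 genes of the transitional state, among them stress and integrin genes, was read beside the 9. Of the 19 that could be tested, 15 had a lower and 4 a higher mean in BLM+HBO, with a median log2 fold change of -0.32. With each mouse left out, the median ran from -0.53 without BLM+HBO 2 to -0.20 without BLM+HBO 1, and 1 to 6 of the genes were called. The rule called 2, both lower: S100a6, which encodes the calcium-binding protein calcyclin, and Tnfrsf12a, which encodes the TWEAK receptor Fn14. S100a6 measured 827, 761, 1170 and 683 CPM in BLM and 442, 692 and 435 CPM in BLM+HBO (log2 fold change -0.72 ± 0.23 SE, edgeR unadjusted P = 0.0114, adjusted P = 0.423). Tnfrsf12a measured 148, 99.2, 135 and 92.1 CPM in BLM and 37.5, 93.7 and 65.8 CPM in BLM+HBO (log2 fold change -0.85 ± 0.29 SE, edgeR unadjusted P = 0.0143, adjusted P = 0.423). In both genes BLM+HBO 2 reached into the BLM range while the other two treated mice did not. S100a6 lost its call without BLM 3 (-0.53) and Tnfrsf12a without BLM+HBO 1 (-0.57), both by falling under the fold limit. Anxa1, which encodes the phospholipid-binding annexin A1, was not called (log2 fold change -0.38, edgeR unadjusted P = 0.0524).

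Genes of resting AT2 cells were read beside these. With all mice, 10 of 10 had a higher mean in BLM+HBO, with a median log2 fold change of 0.30, and 1 was called: Sftpa1, which encodes surfactant protein A, with 1460 ± 277 CPM in BLM and 2530 ± 1150 CPM in BLM+HBO (SD; log2 fold change 0.79, edgeR unadjusted P = 0.0311). This depended on single mice. Without BLM+HBO 3 the AT2 genes divided into 5 lower and 5 higher with a median of 0.03, and without BLM 1 the median was 0.16 with 2 lower. Sftpa1 lost its call when any of BLM 1, BLM 3, BLM+HBO 1 and BLM+HBO 3 was removed, at log2 fold changes of 0.57 to 0.79. Sftpc, the surfactant protein C gene that defines AT2 cells, measured 4550, 8330, 9380 and 8260 CPM in BLM and 14800, 6530 and 16300 CPM in BLM+HBO (log2 fold change 0.72 ± 0.34 SE, edgeR unadjusted P = 0.0605). BLM+HBO 1 and BLM+HBO 3, the treated mice with the lower Cldn4 and Sfn, held the higher Sftpc, and BLM+HBO 2 lay inside the BLM range. The difference in Sftpc was called without BLM+HBO 2 (1.02) and was 0.48 when BLM+HBO 3 was removed.

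For AT1 genes the median log2 fold change was 0.12, with 3 lower, 6 higher and 1 at 0.00, and the rule called 0 of 10. Without BLM 1 the median was 0.03. The smallest unadjusted P was that of Pdpn, which encodes podoplanin, a membrane protein of AT1 and lymphatic cells (log2 fold change -0.31, edgeR unadjusted P = 0.0354). Ager, the AT1 gene for the receptor of advanced glycation end products, measured 2240 ± 486 and 2230 ± 278 CPM (SD; edgeR unadjusted P = 0.966). Of 10 genes common to epithelial cells, 10 had a higher mean in BLM+HBO and 0 were called, with a median log2 fold change of 0.13 and a summed level of 915 to 1470 CPM in BLM and of 1270, 1140 and 1620 CPM in BLM+HBO 1 to 3. Without BLM+HBO 3, 4 of these genes were lower and the median was 0.03, and without BLM 1, 3 were lower and it was 0.04. Over the same mice the 9 transitional genes summed to between 1650 and 2550 CPM in BLM and to 1390, 1740 and 1630 CPM in BLM+HBO.

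**Figure D5:**
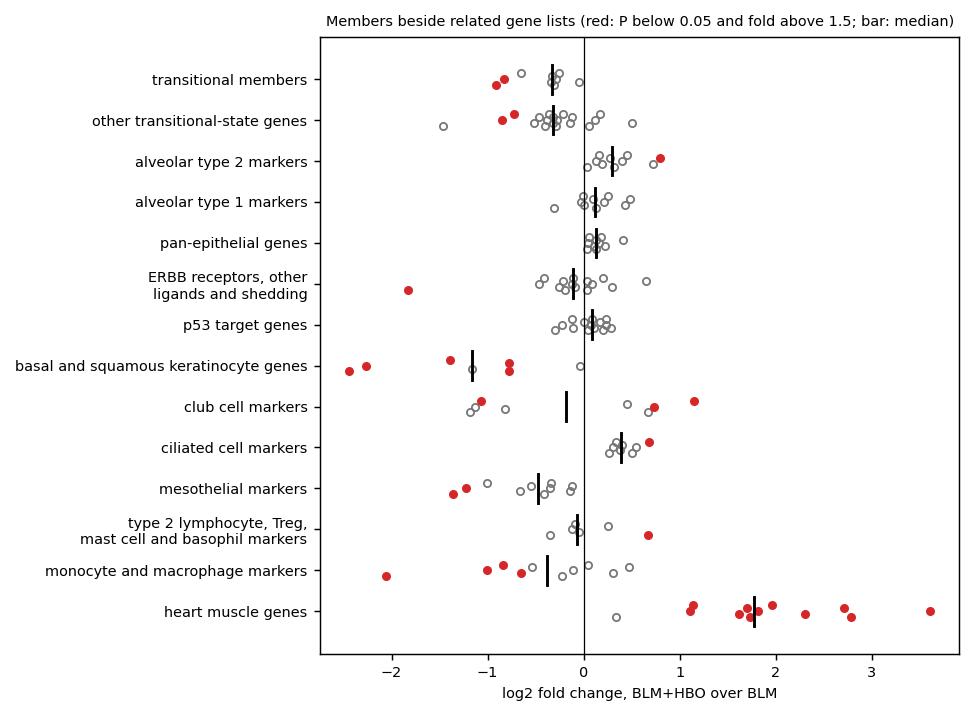
Log2 fold change of BLM+HBO over BLM (horizontal axis) for each tested gene of 14 lists, the 9 transitional genes at the top; red points pass the unadjusted rule and the black bar is the median of the list. The medians were -0.33 for the 9 genes, -0.32 for the other transitional genes, 0.30 for AT2 genes and 0.12 for AT1 genes.

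Sfn is a target of p53, the transcription factor of the DNA damage response, and 14 other p53 targets were read beside it. Of these, 4 had a lower and 9 a higher mean, the median log2 fold change was 0.08, and 0 were called. Without BLM+HBO 3 the genes divided into 7 lower and 7 higher, with a median of 0. The smallest unadjusted P values in edgeR, between 0.149 and 0.169, belonged to Trp53inp1, Plk2, Mdm2 and Sesn2, all with a higher mean in BLM+HBO.

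Keratins, Sfn and Sprr1a are also made by basal and squamous cells, and Krt8, Krt18, Krt7 and Krt19 by airway and mesothelial cells, so lists for those cells were read on the same mice. Of 15 basal and squamous genes, 8 were too low to test, and the rule called 5 of the other 7 as lower. The filter bears on that count, because Krt5, Krt14 and Ivl, all called as lower, passed it through the BLM mice. In BLM+HBO 1 to 3, Krt14 had 1, 48 and 6 reads and Ivl 8, 9 and 21, too few to pass on those mice. Further, 4 of the 8 untested genes (Krt13, Sprr1b, Sprr3 and Cnfn, at 0.201 CPM or less on average) had a higher mean in BLM+HBO. Without BLM+HBO 1 or BLM+HBO 3 the rule called 2. Their summed level was 32.9 to 37.9 CPM in BLM and 12.7, 25.5 and 17.3 CPM in BLM+HBO, of which Tgm1, the gene of a cross-linking enzyme, made up 21.5 ± 3.93 and 12.5 ± 4.58 CPM (SD). The defining basal genes were near 0: Krt5 measured 0.220 to 2.03 CPM in BLM and 0 to 0.479 CPM in BLM+HBO, and Trp63, mentioned after its values were seen, 2.22 ± 0.461 and 1.30 ± 0.213 CPM (SD). Krt14 measured 7.21, 3.44, 5.60 and 2.37 CPM in BLM and 0.0532, 2.30 and 0.225 CPM in BLM+HBO (log2 fold change -2.44, edgeR unadjusted P = 0.0199), and it was not called without BLM+HBO 3 (-1.96, edgeR unadjusted P = 0.0627). The part of these cells in the keratin, Sfn and Sprr1a values was not tested.

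Of 10 mesothelial genes, 10 were lower on average after HBO, with 2 called and a median log2 fold change of -0.48. Their summed level was 545 to 867 CPM in BLM and 396, 637 and 189 CPM in BLM+HBO. Without BLM+HBO 3, the lowest mouse, 3 genes turned higher, the median was -0.12 and 0 were called. The rule also called 0 without BLM 1 or BLM+HBO 1, and it called 5 without BLM+HBO 2. Msln, which encodes mesothelin, measured 433, 279, 501 and 272 CPM in BLM and 116, 298 and 61.2 CPM in BLM+HBO (log2 fold change -1.23, edgeR unadjusted P = 0.0261), with the same 2 treated mice low as for Cldn4 and Sfn. The part of mesothelial cells in the keratin values was not tested. Club cell genes divided, with 4 lower and 4 higher and 3 called (Reg3g lower, Cyp2f2 and Scgb1a1 higher), and 8 of 8 ciliated cell genes had a higher mean, with 1 called (Ccdc39). Without BLM+HBO 3, 0 club and 0 ciliated cell genes were called, and without BLM 3, 6 ciliated cell genes were.

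Areg and Hbegf are also made by immune cells. Of 10 genes of type 2 lymphocytes, regulatory T cells, mast cells and basophils, 6 could be tested, Areg itself among them. The 10 genes summed to 36.5 to 69.5 CPM in BLM and 51.6 to 60.5 CPM in BLM+HBO. Areg is part of this sum, at 13.7 to 46.7 CPM in BLM and 25.4 to 32.5 CPM in BLM+HBO. The sum is therefore not a separate measure to set beside Areg. The rule called 1 gene, Gata3, as higher, which held without BLM 4 or BLM+HBO 2 and not without any other mouse. Monocyte and macrophage genes summed to 1240 to 1580 CPM in BLM and to 916, 1250 and 808 CPM in BLM+HBO, with 4 of 10 called, all lower. In this list 7 genes had a lower and 3 a higher mean, with a median log2 fold change of -0.38. With each mouse left out, 3 to 5 were called and the median ran from -0.56 without BLM+HBO 2 to -0.30 without BLM+HBO 3. Without BLM+HBO 3 a higher gene was among those called. Marco, which encodes a scavenger receptor of alveolar macrophages, had the largest difference of the list (log2 fold change -2.06, edgeR unadjusted P = 0.00268). The part of immune cells in the Areg and Hbegf values was not tested, nor was that of heart muscle RNA in any value given here.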

How the data were processed

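Total RNA from the right lung lobes of 7 mice was extracted with Trizol, made into NEBNext Ultra libraries and sequenced by the authors. Per the labels and the study's methods, HISAT2 was used by the authors for mapping to GRCm38, and the deposited counts are raw numbers of reads assigned to each gene by featureCounts. The release of the annotation is not given in the sources used here. Default counting ignores strand and drops reads that fit several loci or genes, which lowers the counts of genes with close copies. Besides the counts, the deposited table holds each gene's position and exon length. All per-sample columns were used. Symbols came from GENCODE vM21, which named 55141 of 55401 genes, 54349 of them in the same identifier version.

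Low genes were removed by filterByExpr at a minimum count of 10 and a minimum total of 15, and libraries were scaled by TMM (factors 0.964 to 1.04) in edgeR 4.0.16 under R 4.3.3. Groups were compared with edgeR's quasi-likelihood test, BLM as reference, over 17465 genes (common biological coefficient of variation 0.222), with Benjamini-Hochberg adjustment over all of them. A gene was called where the fold change was above 1.5 and the unadjusted P below 0.05, the study's rule. P values measure the spread between mice. CPM and FPKM used TMM-scaled totals, and FPKM the deposited exon length. The 4 within-mouse log2 ratios of counts plus 1 were compared by an exact two-sided permutation over 35 assignments, computed in Python 3.11.15 with numpy 2.4.6. Likeness to Krt8 was the root mean square difference of standardised log2 CPM (prior count 2). The scripts were tested on simulated data.

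Replicate numbers shared by the labels were checked for pairing. Alternatives were DESeq2 1.42.0, limma-trend (limma 3.58.1), RLE and upper-quartile factors, no filter, robust empirical Bayes, a filter of 1 CPM in 3 mice, other pseudocounts for the ratios, a replicate block and leaving out each mouse, which was extended to the other lists after the data were seen. The 9 genes and the 13 other lists were chosen with earlier results of these data known. The text names all 9 genes, up to 4 genes of each other list by smallest unadjusted P, the 5 genes most like Krt8, and Cdh1, Cldn18, Epcam, Sftpc and Ager. Egfr, Trp63 and the untested basal genes were mentioned outside this rule, after their values were seen. A gene that this rule would name is not reported here. Upstream windows came from RefSeq for GRCm38.p6; 7 of the 9 genes had a window that was used, and no protein sequence was used here.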

Additional observations from a re-analysis of the deposited data

Results flagged for a closer look

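One value in the BLM group stood apart from the others of its group by Dixon's criterion. The total count of BLM 4 was 19002242 reads, while the other three BLM mice lay between 18436336 and 18452895 reads, so that the gap was 0.971 of the whole range. The difference is small against the total, and counts were scaled by library. Of 14 sets of 4 BLM values examined, covering the 9 genes, the 4 ratios and the total count, 1 passed, and chance marks about 1 in 20 such sets. No transitional gene had a BLM mouse that stood apart by this criterion.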

How the results depend on the processing

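Of 135 refitted log2 fold changes of the 9 genes, 126 kept direction and call, and 37 of 40 refitted ratios kept direction. No ratio passed with all mice. None could pass with a mouse left out or with the replicate block. There the smallest P of the exact permutation test is 0.0667 (4 against 2 mice), 0.1 (3 against 3) or 0.25 (replicate block). The count of 1098 called genes became 1940 with no filter on low counts and 659 to 1914 with each mouse left out (706 without BLM 1, 659 without BLM+HBO 1, 1914 without BLM+HBO 2). No gene passed at adjusted P below 0.05 in edgeR or limma-trend, against 1861 at unadjusted P below 0.05 in edgeR, and the adjusted count was 128 by DESeq2, 387 with no filter, and 0 to 267 with each mouse left out (267 without BLM+HBO 2, 2 without BLM+HBO 3). Of the 9 genes, 1 to 3 were called with each mouse left out: Sfn alone without BLM+HBO 1 or BLM+HBO 3, and Sprr1a in addition without BLM 2 or BLM+HBO 2 and with no filter (-0.65). With no filter, the adjusted P was 0.00607 for Sfn and 0.0231 for Cldn4 in edgeR; over all alternatives it ran up to 0.802 for both. Areg changed sign to 0.07 with limma-trend, 0.14 with a replicate block, 0.24 without BLM 3 and 0.04 without BLM+HBO 2, and ranged from -0.29 to 0.24 with each mouse left out. The log2 difference of Krt8 to Krt18, 0.02, became -0.03 without BLM 4, -0.09 without BLM+HBO 3 (range -0.09 to 0.1 with each mouse left out) and -0.03 with the replicate block. The cause of these changes was not tested. Under the scalings tried, the share of called genes that were lower was 45.9% with TMM, 46.2% with RLE and 41.8% with upper-quartile factors. Same-numbered mice deviated together with correlations of -0.00797, -0.066 and 0.161, and only BLM+HBO 3 correlated best with its own number. These few values showed no clear pairing by number and cannot exclude one. With the block 1258 genes were called, and Cldn4 and Sfn were again called. Some genes had few reads: Krt5, Krt14 and Ivl had 119, 394 and 145 over all 7 mice. Areg and Sprr1a had at most 851 in a mouse. The part of depth in the spread of these genes was not tested.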

Other observations

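The mice that split the treated group for Cldn4, Sfn, S100a6, Tnfrsf12a and Ereg did so for secretory genes of the airway as well. Cyp2f2, a cytochrome P450 gene of club cells, measured 312, 737, 501 and 377 CPM in BLM and 975, 579 and 1650 CPM in BLM+HBO (log2 fold change 1.15 ± 0.36 SE, edgeR unadjusted P = 0.0108). Reg3g, which encodes an antimicrobial lectin of airway epithelium under inflammation, measured 38.9 to 56.0 CPM in BLM and 9.85, 39.1 and 19.1 CPM in BLM+HBO (log2 fold change -1.07 ± 0.37 SE, edgeR unadjusted P = 0.0180). For both genes BLM+HBO 2 lay inside the BLM range and the other two treated mice lay outside it. Without BLM+HBO 3 both calls were lost, at 0.68 for Cyp2f2 (edgeR unadjusted P = 0.0733) and -0.96 for Reg3g (edgeR unadjusted P = 0.0629). Scgb3a1, a secretoglobin gene of upper-airway secretory cells, measured 123, 294, 363 and 204 CPM in BLM and 50.5, 218 and 69.0 CPM in BLM+HBO, and it was not called (log2 fold change -1.13, edgeR unadjusted P = 0.0523).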
